A study of Mus musculus with 6 samples.

Results

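The genes described are the subunits, activators, inhibitor and assembly factors of the proteasome, taken as every row of the deposited expression table whose mouse gene symbol starts with Psm, a letter from a to g and a number. That rule, which uses no measured value, selected 49 of the 13564 genes in the table. Of these, 47 encode proteasome proteins. The other two are taken in by name only: Psmc3ip, a DNA recombination factor named after its binding to Psmc3, and Psma5-ps, a processed pseudogene. In the count files 6 further genes carry such names (Psma8, Psmb11 and 4 pseudogenes), with at most 5.73 estimated reads in any library, and none of them is in the table.

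The proteasome is the main protease of the cytosol and nucleus and degrades proteins that carry ubiquitin chains. Its barrel-shaped 20S core is built of α rings, which gate the chamber, and β rings, which hold the catalytic sites, and the 19S particle caps it, with a base of ATPases that unfold substrates and a lid that removes ubiquitin. Lymphocytes and interferon-treated cells replace the constitutive catalytic subunits Psmb5, Psmb6 and Psmb7 with the immunoproteasome subunits Psmb8, Psmb9 and Psmb10, which favours peptides that bind MHC class I.

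RNA sequencing was performed on 3 libraries of Foxo1TKO and 3 of Foxo1Ctrl naive CD4 T cells from lymph nodes of mice whose strain the labels give as C57BL/6J and the methods as C57BL/6 with a Foxp3-GFP allele. Foxo1TKO mice carry Foxo1 fl/fl alleles and a CD4-cre transgene, so that the gene is lost from the double-positive thymocyte onwards in both the CD4 and the CD8 lineage, and Foxo1Ctrl mice carry the same floxed alleles without Cre. The labels give no age; the study used young adults of 3 months unless stated otherwise. All cells were cultured for 4 days with 0.1 µg/ml anti-CD3 and splenocytes of CD3eKO mice, 250000 per 50000 T cells by the labels (the methods give a larger number of T cells). These splenocytes carry normal Foxo1, and removal of them before RNA extraction is not described. Neither source says whether libraries of a genotype came from separate mice or cultures, so p-values measure the spread between these samples, which may be technical.

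The libraries held 14783853 to 19675407 estimated reads. Foxo1, the deleted gene, had 85.4, 46.5 and 115 normalised counts in the Foxo1TKO libraries and 1529, 2285 and 1598 in the Foxo1Ctrl libraries (log2 fold change -4.46 ± 0.36 SE). Markers of T cells were present in all libraries (all 9 were tested, with a summed level of 7731 to 8378 TPM, an abundance scaled by gene length, in Foxo1TKO and 9425 to 9990 in Foxo1Ctrl). Cd28 was lower in Foxo1TKO. Of the 2 CD8 T cell markers, Cd8a was at most 0.67 TPM and was not tested. Cd8b1 had 5.24, 5.81 and 4.27 TPM in Foxo1TKO and 7.47, 6.87 and 8.22 TPM in Foxo1Ctrl. Its groups did not overlap on normalised counts, but it did not pass (log2 fold change -0.61, adjusted p = 0.0856, edgeR). For the counts of markers that follow, 12.4% of all genes tested were lower in Foxo1TKO and 11.8% higher. Markers of B cells (4 of 7 tested lower) summed to 7.09 to 10.2 TPM in Foxo1TKO and 22.6 to 29.4 TPM in Foxo1Ctrl. Those of plasma cells (2 of 3 lower) summed to 110 to 159 and 178 to 239 TPM. Macrophage markers (0 of 1 tested passed, C1qa and C1qc at 0) summed to 4.43 to 5.84 and 2.41 to 3.40 TPM. Dendritic cell markers (1 of 3 tested higher, Cd209a at 0) summed to at most 10.3 and 3.75 TPM. Only Itgax passed, at 6.59, 7.10 and 7.68 TPM in Foxo1TKO and 0.43, 0 and 0.02 TPM in Foxo1Ctrl. Zbtb46 (log2 fold change -0.48) and Xcr1 (0.45) were also tested and did not pass. The part of such cells in the values below was not tested, and in bulk RNA fewer cells of a type and less RNA per cell cannot be told apart. Foxo1Ctrl replicate 2 stood apart from its group on the second principal component (17.8% of the variance, -51.6 against 28.4 and 19.97), as did Foxo1TKO replicate 1 within its own (43.5 against -5.37 and -34.9). Foxo1Ctrl replicate 2 was the highest Foxo1Ctrl library for 37 of the 49 genes, and Foxo1TKO replicate 1 had the lowest median deviation of these genes from its group (-0.17, log2, against 0.05 and 0.09). Counts are therefore given without each.

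Of the 49 genes, 9 were higher in Foxo1TKO at an adjusted p under 0.05 and 0 were lower (quasi-likelihood test of edgeR, p-values adjusted by the Benjamini-Hochberg method over 13691 genes tested, which included all 49). This is 18.4% of the genes, where 11.8% of all genes tested were higher and 12.4% lower (24.2% in either direction). At an unadjusted p under 0.05, 14 were higher and 0 lower, against 18.4% and 18.3% of all genes. By DESeq2 11 were higher and 0 lower (22.4% and 0 of the genes, against 14.7% and 14.8% of all genes). The log2 fold change was above 0 for 44 of the 49, compared with 50.6% of all genes, and its median was 0.34, compared with 0.01 over all genes. Of the 9, 6 also exceeded 1.5-fold, and 11.1% of all genes both passed and exceeded that fold in this direction. The lowest Foxo1TKO library was above the highest Foxo1Ctrl library for 17 genes (34.7%, against 21.5% of all genes), and the reverse held for 0 genes (21.2% of all genes). The differences were small per gene and lay mostly in one direction.

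**Figure D1:**
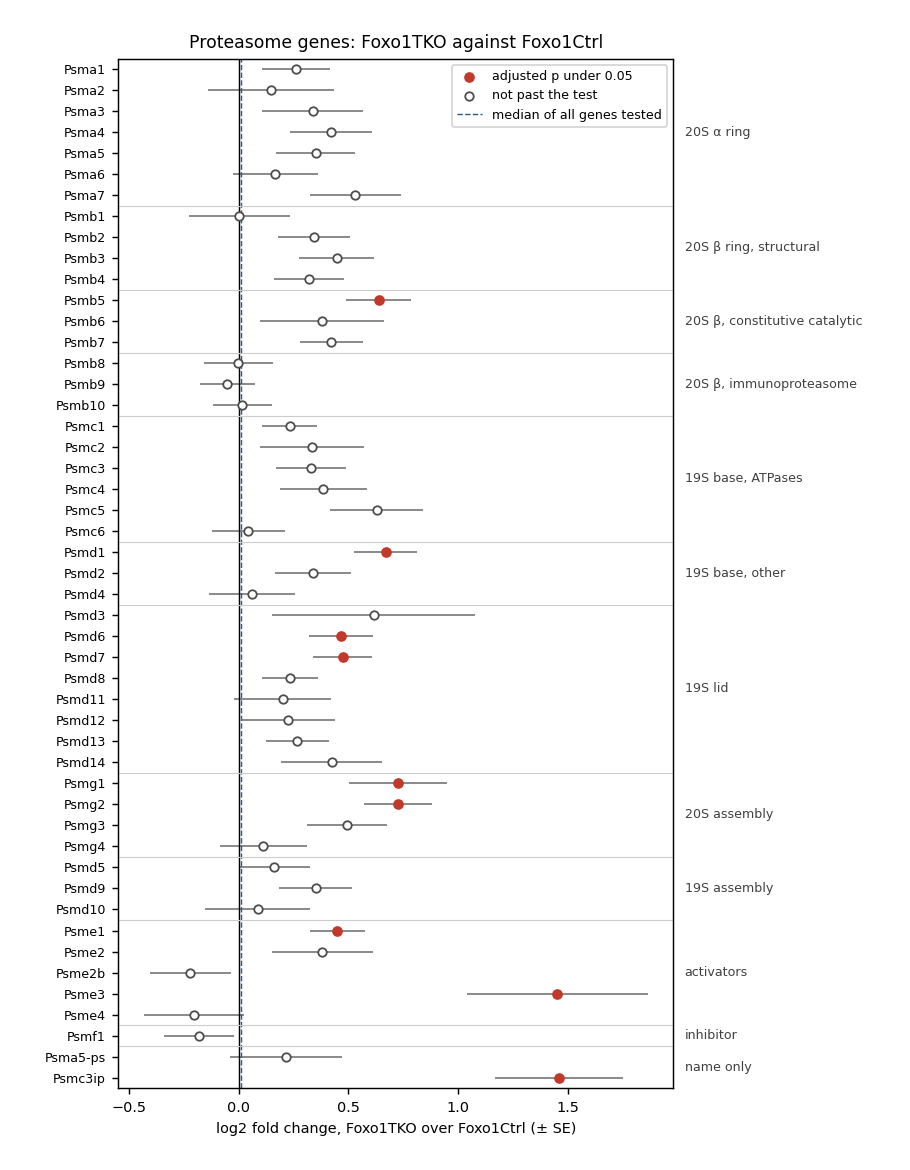
Log2 fold change of Foxo1TKO over Foxo1Ctrl (horizontal axis, ± SE) for the 49 genes, ordered by their place in the proteasome. Filled points mark the 9 genes past the test, open points the others, and the dashed line is the median of all genes tested (0.01). The 3 immunoproteasome subunits lie at 0 while the subunits around them lie mostly between 0.2 and 0.7.

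Leaving out Foxo1Ctrl replicate 2 raised the number of genes past the test to 21 (13.7% of all genes were then higher). The median log2 fold change of the 49 was then 0.46, and 37 genes had no overlap between genotypes (28.5% of all genes). Leaving out any other library left 1 to 4 genes past the test (3 without Foxo1TKO replicate 1), with 4.96% to 8.46% of all genes higher, and in 4 of these 5 fits the share of the 49 was below that of all genes. Only Psmc3ip passed in each of the 6 such fits. Psmd1 passed in 4, Psmg2 in 3, Psmb5 in 2 and the remaining 5 (Psmd6, Psmd7, Psme1, Psme3 and Psmg1) in 1 each. The deviations of single libraries from their group correlated with GC content across genes (Spearman's rho from -0.40 to 0.38). With a correction for GC content Psme1 (adjusted p = 0.141, edgeR), Psmd7 (0.240) and Psmg1 (0.0655) no longer passed, while Psma4 and Psmd14 did. In that fit 8 genes were higher (16.3%, against 13.1% of all genes). The estimated counts of Psmb5, Psmc3ip and Psmd1 were not whole numbers in at least 2 libraries, so they include reads shared with other genes. Shared reads were also in the counts of Psma4 and Psmd14. Of the genes named below, they were in those of Psma5, Psma5-ps, Psmb3, Psmb7, Psmb8, Psmb9, Psmd11, Psme2 and Psme2b.

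**Figure D2:**
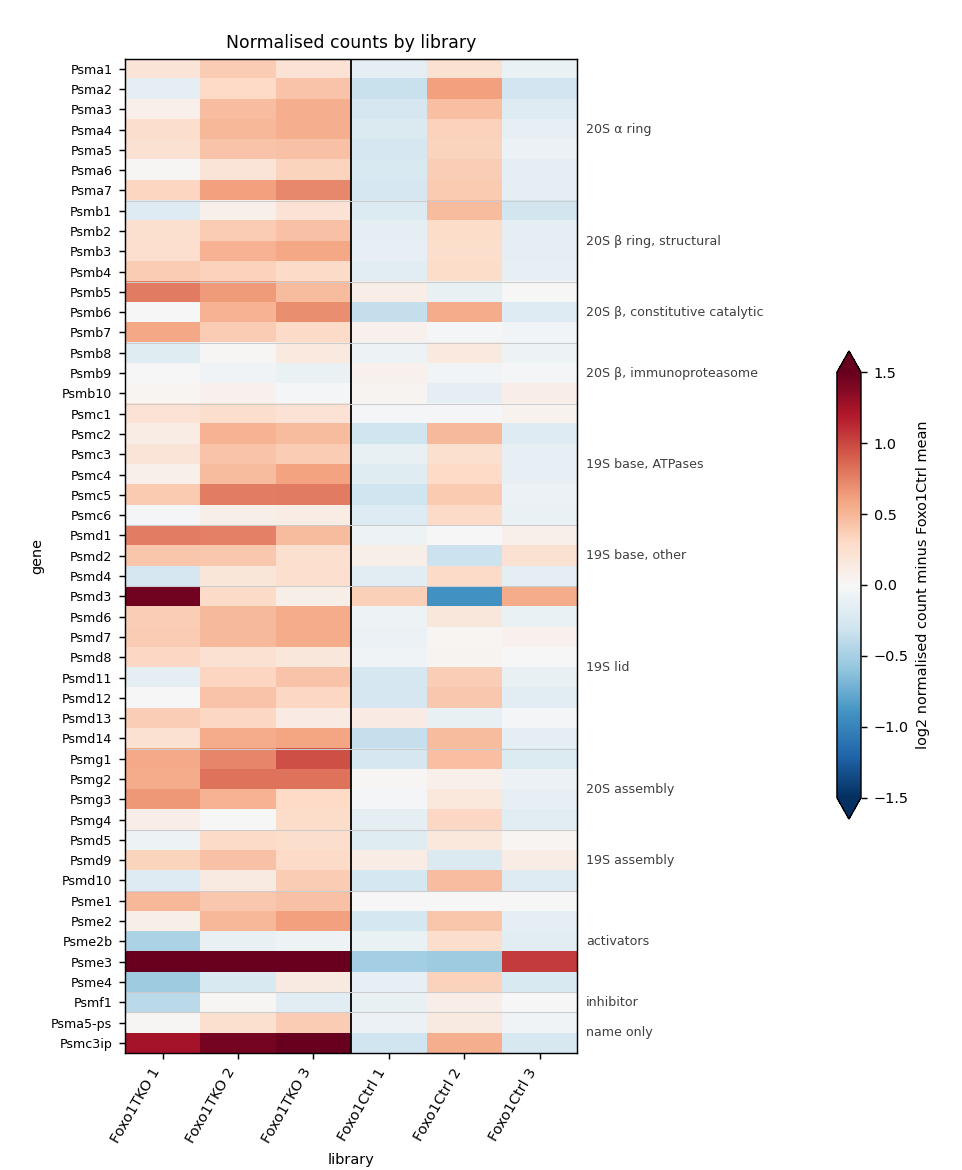
Log2 normalised count of each gene in each library minus the mean of the 3 Foxo1Ctrl libraries (colour; red is higher, and values beyond 1.5 in either direction take the end colour). Foxo1Ctrl replicate 2 is the reddest Foxo1Ctrl column, in 37 of 49 rows, and the 3 immunoproteasome rows are pale in all 6 columns.

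The subunits that build the core were first compared by ring. The α ring, Psma1 to Psma7, had 0 of 7 genes past the test, with log2 fold changes from 0.15 to 0.53 and a median of 0.34. Psma7, the most abundant α subunit, had normalised counts of 8894, 10898 and 11736 in Foxo1TKO and 5969, 9336 and 6512 in Foxo1Ctrl. Foxo1Ctrl replicate 2 lay above Foxo1TKO replicate 1, so the groups overlapped, and the difference was 0.53 ± 0.21 (log2, SE, n = 3; adjusted p = 0.105 by edgeR's quasi-likelihood test). Without that library all 7 α subunits had no overlap and 4 passed. Psma5, the least abundant α subunit by mean TPM, had a log2 fold change of 0.35 ± 0.18.

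The structural β subunits Psmb1 to Psmb4, which have no catalytic site, had 0 of 4 genes past the test and a median log2 fold change of 0.33. Psmb3, the most abundant of them, had a log2 fold change of 0.45 ± 0.17 (adjusted p = 0.09995, edgeR) and Psmb4, the least abundant, 0.32 ± 0.16. Psmb1 differed from the other three in its value, 0.0016 ± 0.23, and Foxo1Ctrl replicate 2 gave its highest count, 14068, against 8339 to 11689 in the other libraries.

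Among the constitutive catalytic subunits, Psmb5 carries the chymotrypsin-like site of the core. Its normalised counts were 2573, 2330 and 2081 in Foxo1TKO and 1602, 1384 and 1501 in Foxo1Ctrl. Every Foxo1TKO library lay above every Foxo1Ctrl library. Psmb5 was 1.56-fold higher in Foxo1TKO (log2 0.64 ± 0.15 SE, adjusted p = 0.0171, edgeR). The gene lies on the minus strand at chr14:54614119-54618022 (GRCm38), and its exons contain the microRNA gene Mir686.

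Psmb7, with the trypsin-like site, had normalised counts of 2307, 2015 and 1890 in Foxo1TKO and 1611, 1528 and 1497 in Foxo1Ctrl. These groups did not overlap either, but the difference, 0.42 ± 0.14 on the log2 scale, missed the threshold (adjusted p = 0.0655, edgeR; 0.0410 by DESeq2). Psmb6, with the caspase-like site, had 7473, 10759 and 12185 in Foxo1TKO and 5839, 11018 and 6542 in Foxo1Ctrl. Foxo1Ctrl replicate 2 exceeded 2 of the 3 Foxo1TKO libraries, and the log2 fold change was 0.38 ± 0.28 (adjusted p = 0.379, edgeR). Without that library it was 0.71 (adjusted p = 0.0443, edgeR).

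The immunoproteasome subunits had 0 of 3 genes past the test and log2 fold changes between -0.05 and 0.02, the median of the role nearest to 0. Psmb8, which takes the place of Psmb5, had 24729, 28408 and 30880 normalised counts in Foxo1TKO and 26528, 31006 and 26603 in Foxo1Ctrl. The groups overlapped throughout, with a log2 fold change of -0.0021 ± 0.16 (adjusted p = 0.993, edgeR). Psmb9, which takes the place of Psmb6, had 4315, 4158 and 4021 in Foxo1TKO and 4507, 4181 and 4266 in Foxo1Ctrl, a log2 fold change of -0.05 ± 0.13. Psmb10, which takes the place of Psmb7, had 4104, 4178 and 3917 against 4136, 3640 and 4286, a log2 fold change of 0.02 ± 0.13. None of the 3 passed when any one library was omitted. Psmb8 and Psmb9 lie next to Tap1 in the MHC class II region of chromosome 17, and Psmb9 and Tap1 have exons that overlap on opposite strands. Since the counting is not stated to use strand, reads of such a pair cannot be told apart.

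Because both subunits of a pair compete for the same place in the ring, their ratio within a library was also compared, on TPM, which is per length and free of library scaling. The ratio of Psmb8 to Psmb5 was 8.27, 10.5 and 12.8 in Foxo1TKO and 14.2, 19.3 and 15.2 in Foxo1Ctrl. All Foxo1TKO ratios were below all Foxo1Ctrl ratios. The difference of the log2 ratio was -0.64, with SDs of 0.32 and 0.23 (two-sided exact permutation p = 0.1, adjusted over the 3 ratios 0.15). The ratio of Psmb10 to Psmb7 was 2.06, 2.37 and 2.31 in Foxo1TKO and 2.96, 2.73 and 3.16 in Foxo1Ctrl, again without overlap, and the difference was -0.39 (exact permutation p = 0.1, adjusted 0.15). The ratio of Psmb9 to Psmb6 was 0.344, 0.240 and 0.195 against 0.457, 0.233 and 0.385. Here Foxo1Ctrl replicate 2 lay among the Foxo1TKO libraries, with a difference of -0.45 (exact permutation p = 0.3, adjusted 0.3). With 3 libraries against 3, the smallest p this test can give is 0.1, so none could reach 0.05.

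**Figure D3:**
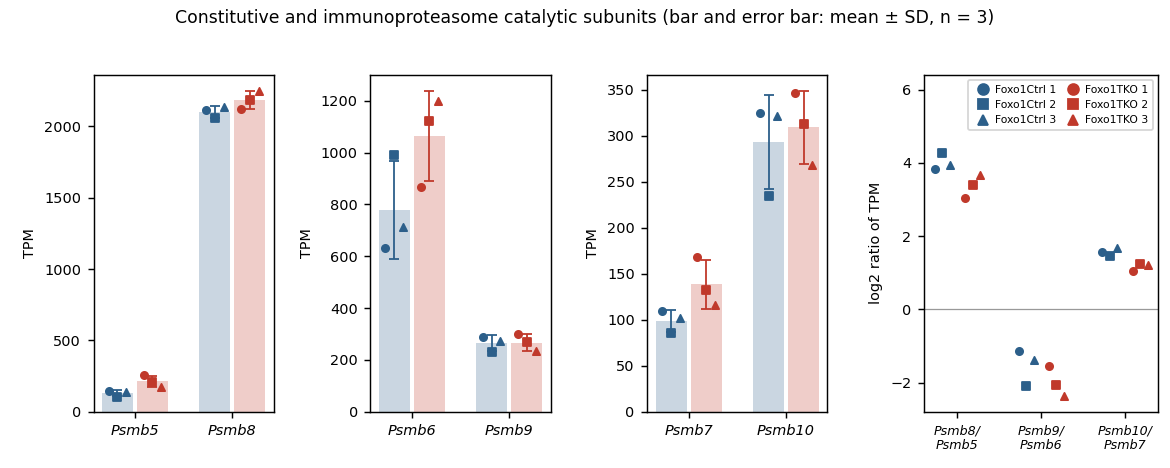
TPM of each constitutive catalytic subunit and its immunoproteasome counterpart in the 6 libraries (bars and error bars are mean ± SD, n = 3), and on the right the log2 ratio of each pair per library. Psmb8 stays near 2099 TPM in both genotypes while Psmb5 lies at 131.63 TPM in Foxo1Ctrl and 213 TPM in Foxo1TKO on average, and the Foxo1TKO ratios are the lower ones without overlap for the first and last pairs.

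Interferon and the class I pathway are known to control the immunoproteasome genes, so lists of both were set beside them. Of all genes tested, 11.8% were higher in Foxo1TKO and 12.4% lower. Of 12 genes of class I antigen processing and its regulators, 0 rose and 1 fell, Nlrc5, the transactivator of class I genes (log2 fold change -0.70, adjusted p = 0.0129, edgeR). Of 12 interferon signalling genes, 0 rose and 5 fell, among them Ifngr1, a chain of the interferon-γ receptor (-3.49), Ifit3 (-2.91) and Gbp2 (-2.58), with adjusted p-values of at most 0.00151 (edgeR). The median log2 fold change of the interferon list was -1.05 and that of the class I list -0.36, against 0.01 over all genes. The log2 fold changes of Psmb8, Psmb9 and Psmb10 lay between -0.05 and 0.02. The part of either pathway in these values was not tested, and both lists were chosen with earlier results of these data known.

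The 19S base holds the ATPases Psmc1 to Psmc6, and 0 of 6 passed, with log2 fold changes from 0.04 to 0.63 and a median of 0.33. Psmc5 gave the largest value, with normalised counts of 3937, 5101 and 5118 in Foxo1TKO and 2429, 3919 and 2809 in Foxo1Ctrl. The groups were separated only by the small gap between Foxo1TKO replicate 1 and Foxo1Ctrl replicate 2, and the difference was 0.63 ± 0.21 (adjusted p = 0.0664, edgeR). Psmc5 was picked here for that value. Psmc3, the most abundant ATPase, had 0.33 ± 0.16 and Psmc6, the least abundant, 0.04 ± 0.16.

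Psmd1, the largest subunit of the base, is a scaffold and not an ATPase. It had 3177, 3141 and 2599 normalised counts in Foxo1TKO and 1766, 1879 and 1960 in Foxo1Ctrl. The groups did not overlap, and the gene was 1.59-fold higher in Foxo1TKO (log2 0.67 ± 0.14, adjusted p = 0.0131, edgeR). Its exons overlap those of Htr2b on the other strand and of the annotated gene Gm21972 on the same strand (chr1:86064387-86139151). Psmd4, a ubiquitin receptor and the most abundant subunit of this group, had a log2 fold change of 0.06 ± 0.20.

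The 19S lid had 2 of 8 genes past the test, where 11.8% of all genes were higher, and a median log2 fold change of 0.34. Psmd7, the partner of the deubiquitinase Psmd14 in the lid, had 3269, 3512 and 3711 normalised counts in Foxo1TKO and 2368, 2562 and 2629 in Foxo1Ctrl. The lowest Foxo1TKO library was well above the highest Foxo1Ctrl library, with a 1.39-fold difference (log2 0.47 ± 0.13, adjusted p = 0.0363, edgeR). Psmd6, a scaffold subunit, had 2863, 3100 and 3242 in Foxo1TKO and 2102, 2496 and 2065 in Foxo1Ctrl. It was 1.38-fold higher, without overlap, at an adjusted p of 0.04997 (edgeR), which is at the threshold. Psmd11, the most abundant lid gene, had a log2 fold change of 0.20 ± 0.22. Psmd3, the least abundant, varied most between libraries, with 1057, 473 and 409 in Foxo1TKO and 495, 206 and 566 in Foxo1Ctrl, and its difference of 0.61 ± 0.46 did not pass.

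The assembly chaperones of the core gave the highest median of the roles with more than 2 genes, 0.61. Of these 4 genes 2 passed the test, where 11.8% of all genes were higher. With 1 library omitted at a time, Psmg1 passed in 1 of 6 fits and Psmg2 in 3. Psmg1 also did not pass with the size factors of DESeq2 or upper quartile scaling (adjusted p = 0.0588 and 0.0649, edgeR). Psmg1 and Psmg2 form a dimer on which the α ring is built. Psmg1 had 1537, 1715 and 2014 normalised counts in Foxo1TKO and 868, 1413 and 900.1 in Foxo1Ctrl. Foxo1Ctrl replicate 2 came close to the lowest Foxo1TKO library without reaching it, and the gene was 1.66-fold higher (log2 0.73 ± 0.22, adjusted p = 0.04997, edgeR; log2 0.99 and adjusted p = 0.00569 without that library). Psmg2 had 937, 1120 and 1125 in Foxo1TKO and 649, 672 and 600 in Foxo1Ctrl. The Foxo1Ctrl libraries were close together here, and Psmg2 was also 1.66-fold higher (log2 0.73 ± 0.15, adjusted p = 0.0124, edgeR). Psmg3, the least abundant of the 4, had 0.49 ± 0.18 without overlap but did not pass (adjusted p = 0.0915, edgeR).

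The chaperones of the 19S base, Psmd5, Psmd9 and Psmd10, had 0 of 3 genes past the test and a median of 0.16. Psmd9, the least abundant, had a log2 fold change of 0.35 ± 0.17, and Psmd10, the most abundant, which is also known as gankyrin, 0.09 ± 0.24.

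Activators replace or join the 19S particle at the end of the barrel. Psme3 is the subunit of the nuclear activator PA28γ, which degrades some proteins without ubiquitin. It had 1621, 1745 and 1536 normalised counts in Foxo1TKO and 364, 357 and 1066 in Foxo1Ctrl. All Foxo1TKO libraries lay above all Foxo1Ctrl libraries, but Foxo1Ctrl replicate 3 was closer to Foxo1TKO than to its own group. The difference was 2.74-fold (log2 1.45 ± 0.41, adjusted p = 0.0377, edgeR), the largest of the proteasome proteins. With 1 library omitted at a time, Psme3 passed in only 1 of 6 cases, and its log2 fold change ranged from 1.18 to 2.17.

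Psme1 and Psme2 form the interferon-inducible activator PA28αβ of the cytosol. Psme1 had 6679, 6237 and 6428 normalised counts in Foxo1TKO and 4711, 4746 and 4714 in Foxo1Ctrl. Libraries of a genotype were nearly equal, and Psme1 was 1.37-fold higher in Foxo1TKO (log2 0.45 ± 0.13, adjusted p = 0.0356, edgeR). Its exons overlap those of Emc9 on the other strand. Psme2 had 12754, 16922 and 18383 in Foxo1TKO and 9995, 16067 and 10830 in Foxo1Ctrl. Foxo1Ctrl replicate 2 again lay inside the range of Foxo1TKO, and the difference was 0.38 ± 0.23 (adjusted p = 0.272, edgeR; 0.62 and 0.0357 without that library). Psme2b, a copy of Psme2 whose estimated counts also include shared reads, had a log2 fold change of -0.22 ± 0.19. How RSEM divided reads between these copies was not tested, so both values are uncertain.

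Psme4, the nuclear activator PA200, had 620, 763 and 978 normalised counts in Foxo1TKO and 823, 1132 and 765 in Foxo1Ctrl, and Psmf1, an inhibitor of the core in vitro, had 1687, 2270 and 1984 against 2077, 2403 and 2256. Both overlapped between genotypes, with log2 fold changes of -0.21 ± 0.23 and -0.18 ± 0.16 that did not pass.

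The largest difference of the 49 was that of Psmc3ip, which is not part of the proteasome and acts in DNA strand exchange during recombination. It had 323, 365 and 474 normalised counts in Foxo1TKO and 110, 198 and 114 in Foxo1Ctrl. The groups did not overlap, and the difference was 2.75-fold (log2 1.46 ± 0.29, adjusted p = 0.00953, edgeR). Its exons overlap those of Mlx on the other strand, and Mlx itself had a log2 fold change of 0.16 (adjusted p = 0.572, edgeR). Psma5-ps, whose counts share reads with Psma5, had 0.22 ± 0.26. Without these 2 genes, 8 of 47 (17.0%) passed and the median was again 0.34.

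**Figure D4:**
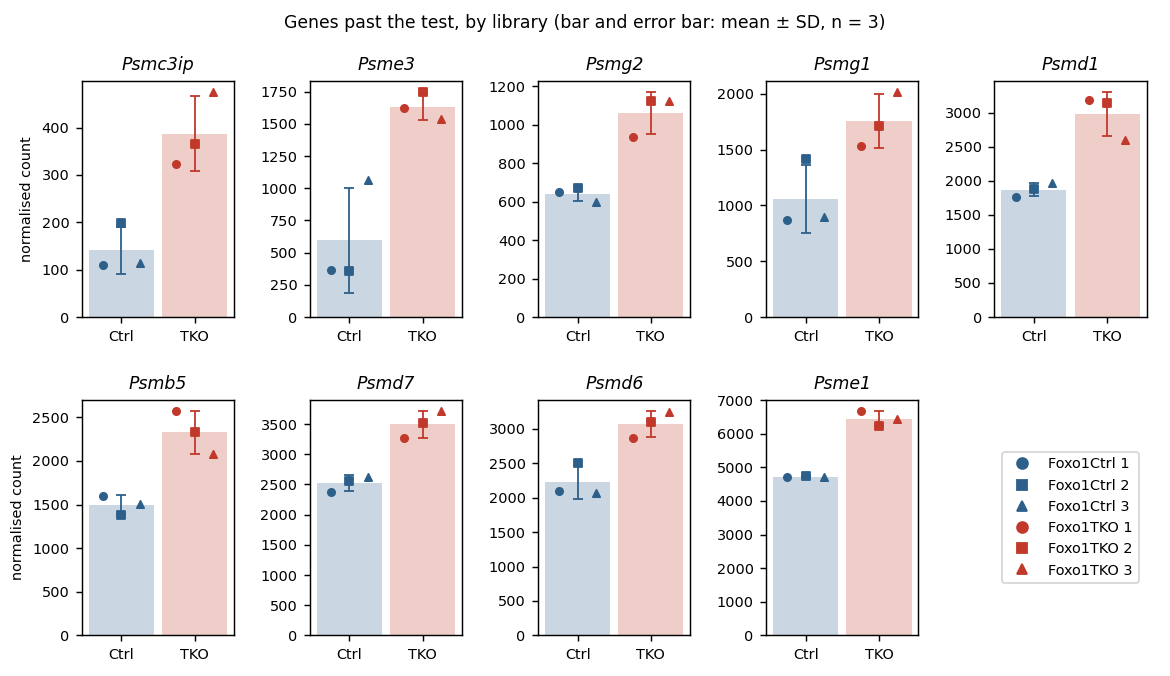
Normalised counts of the 9 genes past the test in each library (points; bars and error bars are mean ± SD, n = 3), ordered by fold change, with each vertical axis starting at 0. The genotypes do not overlap in any panel, the gap is narrow for Psmg1, where Foxo1Ctrl replicate 2 reaches 1413, and Foxo1Ctrl replicate 3 stands apart for Psme3 at 1066.

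Levels differed between genes far more than between genotypes. Per length, Psmb8 was the highest, at 2183 ± 64.3 TPM in Foxo1TKO and 2099 ± 40.2 TPM in Foxo1Ctrl (SD, n = 3). Psme2 came next, at 1707 ± 173 and 1272 ± 210 TPM, and then Psmb6, at 1064 ± 174 and 778 ± 188 TPM. Psmb3 (680 ± 34.9 TPM) and Psma7 (650 ± 82.8 TPM) did not differ from Psmb6 or from each other beyond their spread in Foxo1Ctrl. At the other end, Psmd3 (14.1 ± 7.29 TPM), Psme3 (16.3 ± 12.4 TPM) and Psme4 (14.1 ± 1.14 TPM) were the lowest proteasome genes in Foxo1Ctrl and did not differ beyond their spread. In all, 37 of the 49 genes had a mean of 100 TPM or more.

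**Figure D5:**
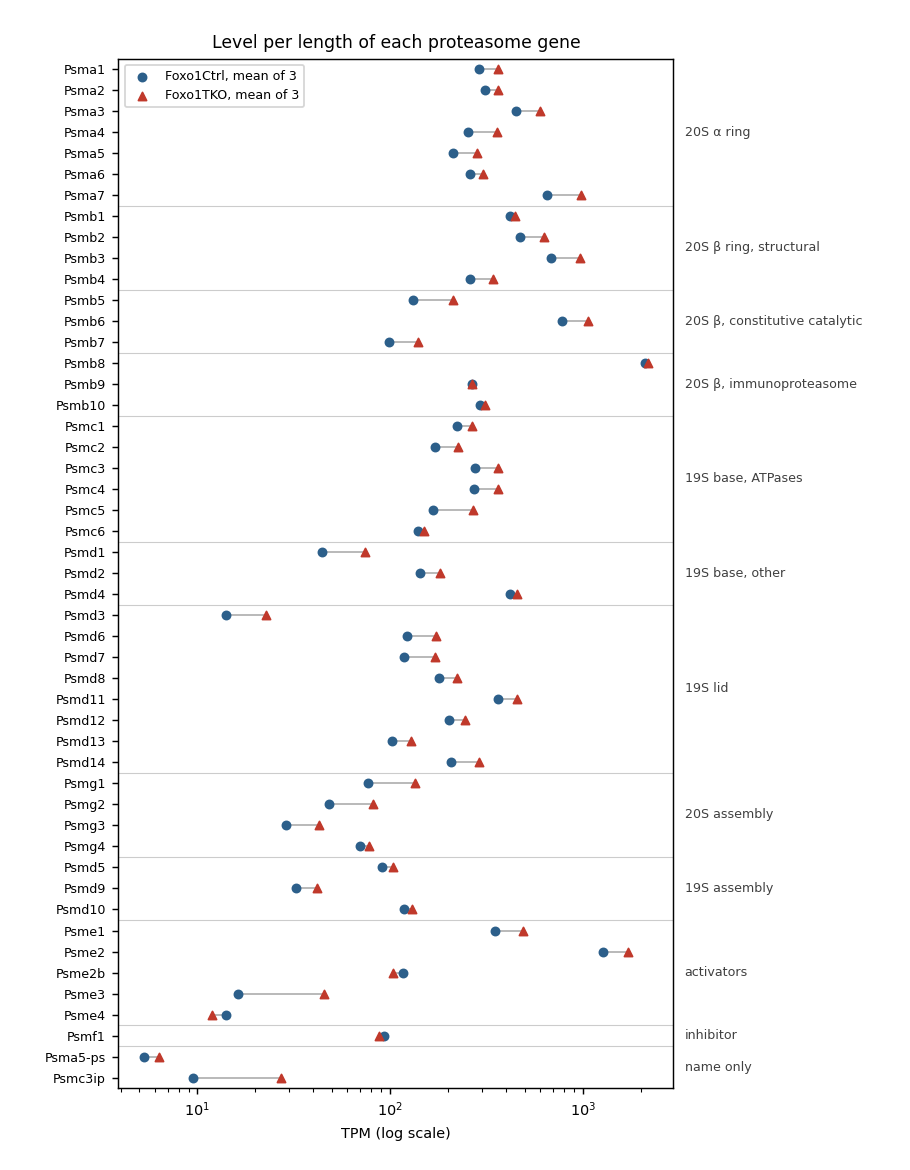
Mean TPM of each gene in Foxo1Ctrl (circles) and Foxo1TKO (triangles), on a logarithmic axis, ordered by role. Triangles lie to the right of circles for most genes, and Psmb8 (2099 and 2183 TPM) and Psme4 (14.1 and 11.95 TPM) mark the ends of the range among proteasome proteins.

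Summed over the 49 genes, the level was 16349, 17412 and 17078 TPM in Foxo1TKO and 12713, 14393 and 13166 TPM in Foxo1Ctrl, without overlap. The median of all genes was shifted by 0.07 (log2) on this scale. On normalised counts the same sums overlapped, at 220798 to 268222 in Foxo1TKO and 184288 to 248221 in Foxo1Ctrl, because the highest Foxo1Ctrl value, that of replicate 2, lay above the lowest Foxo1TKO value. The scaling factor of that library was 0.889, against 0.997 to 1.10 in the others. Without the immunoproteasome, the 20S and 19S subunits summed to 10665 to 11470 TPM in Foxo1TKO and 7807 to 9291 TPM in Foxo1Ctrl. The 3 immunoproteasome subunits summed to 2747 to 2768 TPM and 2520 to 2728 TPM, ranges that did not touch, but that overlapped on normalised counts (33147 to 38818 and 35156 to 38827). The core assembly chaperones were separated on both scales, at 328 to 342 and 214 to 241 TPM and at 3370 to 3979 and 2126 to 2902 normalised counts.

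Genes that work with the proteasome outside the name pattern were taken from a list of 12, of which 11 were found. In Foxo1TKO 2 were higher (18.2%, against 11.8% of all genes) and 0 lower, with a median log2 fold change of 0.26. Usp14, a deubiquitinating enzyme bound to the 19S base, had 1524, 1633 and 1473 normalised counts in Foxo1TKO and 915, 1176 and 979 in Foxo1Ctrl. Zfand5, which activates the 26S proteasome, had 899, 733 and 840 against 359, 591 and 448. Neither gene overlapped between genotypes, and the log2 fold changes were 0.59 ± 0.15 (adjusted p = 0.0269, edgeR) and 0.82 ± 0.22 (adjusted p = 0.0282). Each passed in only 1 of the 6 fits with a library omitted, that without Foxo1Ctrl replicate 2. Pomp, the chaperone that matures the core, had 6995, 9341 and 9897 against 5307, 10839 and 5735, with Foxo1Ctrl replicate 2 the highest of all libraries, and did not pass (adjusted p = 0.562, edgeR; 0.0275 without that library).

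Of 12 genes that act on proteasome transcription, 0 rose and 2 fell, where 12.4% of all genes were lower. Ngly1, the glycanase that processes the transcription factor Nfe2l1, had 1340, 1320 and 1391 normalised counts in Foxo1TKO and 3815, 3418 and 3539 in Foxo1Ctrl. The groups lay far apart, with a log2 fold change of -1.41 ± 0.13 (adjusted p = 0.000357, edgeR). Bach2, a repressor at antioxidant response elements, fell by 1.00 on the log2 scale (adjusted p = 0.0241, edgeR). Nfe2l1 itself, which drives proteasome genes when proteasome activity is low, had 199, 132 and 103 in Foxo1TKO and 99.0, 85.8 and 124 in Foxo1Ctrl, groups that overlapped (0.49 ± 0.31, adjusted p = 0.294). Of 6 genes for ubiquitin supply and activation 0 passed. Of 11 tested shuttle factors and p97 partners 2 were higher (18.2%, against 11.8% of all genes), Ubqln4 (1.24 ± 0.27) and Nsfl1c (0.73 ± 0.13).

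Promoter windows from RefSeq (GRCm38.p6; 250 bases before and 50 after the annotated start) were found for 41 of the 49 genes, 7 of them among those past the test, and searched on both strands for 7 short motifs. Those of 4 genes past the test are shown because they hold the motifs discussed, each cut at the start of the annotated gene and written 5′ to 3′ on the gene's strand, with capitals for every motif match that lies whole in the printed stretch. They are Psmb5 (chr14:54618023-54618245, minus strand), Psmc3ip (chr11:101095437-101095685, minus), Psme3 (chr11:101315963-101316212, plus) and Psmg1 (chr16:95990961-95991210, minus).
Psmb5: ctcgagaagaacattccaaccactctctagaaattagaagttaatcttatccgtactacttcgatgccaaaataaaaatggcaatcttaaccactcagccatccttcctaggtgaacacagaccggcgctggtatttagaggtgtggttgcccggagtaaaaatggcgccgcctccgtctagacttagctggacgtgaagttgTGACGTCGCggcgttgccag
Psmc3ip: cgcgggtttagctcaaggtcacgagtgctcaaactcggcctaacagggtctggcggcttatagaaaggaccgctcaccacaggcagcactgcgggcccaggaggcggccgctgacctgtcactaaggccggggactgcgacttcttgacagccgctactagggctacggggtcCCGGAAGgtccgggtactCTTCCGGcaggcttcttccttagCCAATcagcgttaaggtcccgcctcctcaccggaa
Psme3: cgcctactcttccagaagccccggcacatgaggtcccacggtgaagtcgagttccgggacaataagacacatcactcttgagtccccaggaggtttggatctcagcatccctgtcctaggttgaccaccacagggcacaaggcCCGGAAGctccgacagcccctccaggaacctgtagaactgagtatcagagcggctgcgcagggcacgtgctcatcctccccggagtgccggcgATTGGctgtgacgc
Psmg1: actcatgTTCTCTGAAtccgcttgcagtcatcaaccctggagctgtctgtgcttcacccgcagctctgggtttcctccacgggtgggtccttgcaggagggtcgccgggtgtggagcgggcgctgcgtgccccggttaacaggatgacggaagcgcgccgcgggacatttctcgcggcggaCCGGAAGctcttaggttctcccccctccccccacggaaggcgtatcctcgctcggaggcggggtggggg

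The 41 genes had 44 windows, and a gene was counted for a motif if any of its windows held it. The ETS motif CCGGAAG was held by 15 of the 41 genes (36.6%), compared with 9.93% of all genes with a window and 21.6% of those tested. It is in capitals in 3 of the 4 sequences above, as CCGGAAG or its reverse CTTCCGG, and occurs in Psmc3ip, Psmd6, Psme3 and Psmg1 among the genes past the test. The NRF1 motif was held by 7 genes (17.1%, against 5.19% and 12.1%). The core of the antioxidant response element, TGACNNNGC, was held by 6 genes (14.6%, against 3781 of all 27025 genes and 16.8% of those tested). Among them was Psmb5, where it starts 47 bases before the start site as TGACGTCGC. The interferon-stimulated response element was held by 5 genes (12.2%, against 3.99% and 3.92%), Psmb3, Psmd4, Psmd9, Psme1 and Psmg4, of which Psme1 passed. The interferon-γ activation site TTCNNNGAA was held by 3 genes (7.32%, against 9.55% and 8.35%), Psmb8, Psmd2 and Psmg1, and CCAAT by 14 (34.1%, against 41.1% and 43.6%). The FOXO motif GTAAACA was held by 0 of the 41 genes, against 4.05% of all genes with a window and 3.22% of those tested. A match describes letters in a window and not a bound site, and a missing match says only that these letters are not in it.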

How the data were processed

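Total RNA of the 6 cultures was sequenced. Per the labels and methods, the authors aligned reads with STAR 2.7.6a to Ensembl GRCm38 and counted them with RSEM 1.3.1, which shares reads among similar genes, and deposited estimated counts, TPM and effective lengths per library. They also deposited a table of normalised signal (estimated count over size factor and relative length). The strand setting is not given in the sources used here. Whether a gene's estimated counts were whole numbers showed shared reads (18 of 49 genes).

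Estimated counts were rounded to whole numbers and fitted for all genes with edgeR 4.0.16 (R 4.3.3): TMM scaling, at least 10 counts in at least 3 libraries, quasi-likelihood test of genotype, Benjamini-Hochberg adjustment over 13691 genes. Passed means an adjusted p under 0.05. The SE is the size of the fitted log2 coefficient over the square root of F. That coefficient lacks the small prior count that the printed log2 fold change includes. Normalised counts are counts divided by TMM-scaled library size, and normalised counts compare libraries, TPM compares genes. Catalytic pairs were compared by exact permutation tests (SciPy 1.17.1). Scripts were tested on simulated counts. Alternatives were DESeq2 1.42.0, its size factors, upper quartile scaling, library totals, filterByExpr, no filter, the deposited table with limma 3.58.1 (pseudocount 1), a replicate block, a GC correction added after seeing the data, stricter limits and leaving out each library. The members and lists were chosen with earlier results of these data known. Named genes were the catalytic pairs, activators and inhibitor, the 8 with the largest change past the test, the most and least abundant gene of each role, and of other lists at most 3 past the test with the largest change. Further genes named outside this rule (Psma4, Psmb1, Psmc5, Psmd14, Psme2b, Pomp, Nfe2l1, Mlx, Cd8a, Cd8b1, Xbp1, Zbtb46, Xcr1, Mki67, Birc5) were chosen after their values were seen. Positions and exon overlaps are from GENCODE M21 (GRCm38), where exons of 12 of the 49 genes overlap a gene on the other strand and of 4 a gene on the same strand. The class I list was shortened by 1 gene, which is not reported here.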

Additional observations from a re-analysis of the deposited data

How the results depend on the processing

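Leaving out 1 library moved the number of proteasome genes higher in Foxo1TKO between 1 and 21, and in these fits 0 were lower. It was 3 without Foxo1TKO replicate 1, 1 without replicate 2 and 4 without replicate 3, and 1, 21 and 3 without Foxo1Ctrl replicates 1, 2 and 3. In all, 21 genes crossed the threshold, and all 13 that gained it did so without Foxo1Ctrl replicate 2, where 8 of the 9 calls were also made again (Psme3 was lost). Over all genes the share higher was 4.96% to 13.7% in these fits, against 11.8%. With library totals in place of TMM 19 genes were higher (38.8%, with 2048 of all 13691 genes), and the median of all genes moved to 0.12 (log2), so that the median of the 49 relative to it was 0.33 in both. The limit of 0.01 left 1 gene, and 729 of all genes. The remaining alternatives gave 6 to 11 genes (12.2% to 22.4%, against 7.46% to 14.7% of all genes) and 0 lower. Of the genes working with the proteasome, 0 passed in 5 of the 6 fits with 1 library left out, 4 without Foxo1Ctrl replicate 2, and 0 at the limit of 0.01, against 2. The replicate block gave 7 genes (14.3%, against 12.5% of all genes), without Psmd6, Psmd7 and Psme1 and with Psmc5. Same-numbered libraries deviated together with correlations of 0.46, 0.23 and -0.14, and Foxo1TKO replicate 3 correlated best with Foxo1Ctrl replicate 2 (0.34). Deviations from the mean of 3 libraries depend on each other, so these correlations cannot show whether same-numbered libraries were paired. In the paper, flow cytometry of such cultures was tested in pairs by experiment. For the 30 named genes, 388 of 450 alternative values kept their call or their lack of one, 48 lost a call, 14 gained one and 0 of the called values changed sign. All 48 losses fell on the 9 genes past the test, as the other named genes had no call to lose. The 3 ratios of catalytic subunits kept their direction under all alternatives run.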

Other observations

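Growth and proliferation genes were read from lists chosen with results of these data known. Of 11 growth genes 7 rose (63.6%, against 11.8% of all genes) and 0 fell, with a median log2 fold change of 0.95. Slc7a5, an amino acid transporter, had 105, 79.0 and 70.8 normalised counts in Foxo1TKO and 22.7, 5.72 and 28.1 in Foxo1Ctrl (log2 fold change 2.16 ± 0.51, adjusted p = 0.0188, edgeR). Myc, a driver of ribosome and nucleotide synthesis, had 6510, 5225 and 5121 against 1492, 1291 and 1973 (1.83 ± 0.20, adjusted p = 0.000762, edgeR). Fbl, a methyltransferase of ribosomal RNA, rose by 1.63 ± 0.21 on the same scale. Neither Slc7a5 nor Myc overlapped between genotypes.

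Of 15 proliferation genes 6 rose (40.0%, against 11.8% of all genes) and 0 fell, with a median of 0.80. The log2 fold change was below 0 for 2, Mki67 (-0.12) and Birc5 (-0.41), which did not pass. By dilution of a cell dye, the paper reported reduced proliferation of Foxo1-deficient cells in such cultures, a different measure from RNA levels. Among those 6, the largest changes were those of Mcm5 and Mcm6, subunits of the replicative helicase (1.49 ± 0.32 and 1.12 ± 0.17), and Cdk1, the kinase that drives mitosis (1.04 ± 0.30). Their part in the values of the proteasome genes was not tested.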
